A study of Mus musculus with 20 samples.

Results

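Cadherins and protocadherins were followed in mouse hippocampal neurons in which NMDA receptors had been blocked for a day. The genes were all those whose name on the array is Cdh with a number, or starts with Pcdh. They came to 67 of 27962 gene names, read by 113 probes. Of the 67 genes, 57 were tested and 10 were not, because none of the probes of those 10 was well above background in the sample channel on 5 or more of the 20 arrays. On all 20 arrays 44 of the 67 were well above background.

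The cells were dissociated neurons on day 21 in culture, treated for 24 h with vehicle (control), with 100 µM AP5, with 100 nM NVP-AAM077 (NVP) or with 1 µM of a compound coded Ro25-4891 in the labels (Ro25). AP5 is a competitive antagonist of NMDA receptors as a class, and NVP-AAM077 is known as an antagonist that prefers receptors with the Grin2a subunit. The 4 groups had 5 arrays each, and no strain, sex, age of the animals or genotype is given in the labels. Each 2-colour array set a culture's RNA in Cy5 against the same universal mouse reference RNA in Cy3, with no dye swap, so every value is a log2 ratio of sample to reference and only differences between groups are free of a constant dye bias. The labels do not tell whether a group's 5 arrays stand for separate cultures, so p-values here speak of array-to-array spread, which may be technical.

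Cadherins are calcium-dependent adhesion proteins of the cell surface. Classical cadherins bind their own kind on the facing cell and hold on to the actin skeleton through catenins, and several of them sit at synapses. Protocadherins lack the catenin-binding tail: the delta family acts in axon and synapse development, while the clustered alpha, beta and gamma genes are chosen in different combinations by single neurons and give each neuron a surface identity. Synaptic adhesion of this kind is known to be remodelled by NMDA receptor activity, for instance through Pcdh8 (also called arcadlin) and Cdh2.

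The promoters of 4 genes on which the AP5 results turn are shown first, because they let those genes be compared at the start of transcription. Each line gives the 200 bases before the RefSeq start, on the gene's own strand, which is the minus strand in all 4, in build GRCm38.p6. They lie at chr2:165234738-165234937 for Cdh22, chr14:37098348-37098547 for Cdhr1 (the present name of the gene called Pcdh21 on the array), chrX:133688994-133689193 for Pcdh19 and chr8:99416472-99416671 for Cdh8. Capitals mark GC boxes (GGGCGG on either strand) and the half-site of the cAMP response element (TGACG on either strand).
Cdh22: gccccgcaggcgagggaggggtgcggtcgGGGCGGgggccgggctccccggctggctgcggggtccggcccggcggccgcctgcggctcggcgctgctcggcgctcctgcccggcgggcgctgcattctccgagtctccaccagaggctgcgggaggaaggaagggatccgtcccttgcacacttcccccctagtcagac
Cdhr1: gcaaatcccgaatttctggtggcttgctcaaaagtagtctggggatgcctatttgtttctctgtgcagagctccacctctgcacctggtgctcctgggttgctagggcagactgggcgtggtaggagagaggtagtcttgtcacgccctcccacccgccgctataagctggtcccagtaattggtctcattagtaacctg
Pcdh19: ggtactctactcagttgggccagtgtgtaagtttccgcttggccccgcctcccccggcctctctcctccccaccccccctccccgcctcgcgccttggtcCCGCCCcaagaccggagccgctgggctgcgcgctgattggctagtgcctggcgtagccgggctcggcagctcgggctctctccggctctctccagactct
Cdh8: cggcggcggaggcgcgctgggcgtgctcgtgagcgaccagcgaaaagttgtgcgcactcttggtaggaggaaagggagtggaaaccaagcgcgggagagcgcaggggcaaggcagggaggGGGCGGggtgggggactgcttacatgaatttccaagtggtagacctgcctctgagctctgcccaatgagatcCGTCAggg
The promoters of Cdh22 (77% G and C), Pcdh19 (70%) and Cdh8 (64%) each hold 1 GC box, and that of Cdhr1 (54.5%) holds none. In windows of 300 bases (250 before the start and 50 after it) the GC box was found in 35.7% of 32851 RefSeq promoters and in 9 of the 23 promoters of these genes that the table holds. The half-site of the cAMP response element, the element of activity-regulated promoters, was found in 20.8% of all promoters and in 3 of the 23, among them Cdh8 with 1 match. The E-box CANNTG was found in 72.3% of all promoters and 14 of the 23, and the MEF2 motif in 3.69% and 0. All motifs were searched on both strands, and a match is a description of letters only.

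In vehicle-treated neurons the ratio to the reference ran from −1.93 to 7.22 on the log2 scale between genes. A ratio is relative to whatever the reference RNA holds of that gene, so it does not rank genes by their level. The highest ratios belonged to protocadherins known from the nervous system. Pcdh8, an activity-induced delta-2 protocadherin, had a control log2 ratio of 7.22 ± 0.18, Pcdh17 of the same family 6.75 ± 0.19, and Pcdh20, a solitary protocadherin, 6.53 ± 0.22 (SD, n = 5 each). Among the cadherins Cdh20 (5.56 ± 0.13) and Cdh4 (4.73 ± 0.20), known as R-cadherin, were highest, followed by Cdh10 (3.78 ± 0.11) and Cdh8 (3.75 ± 0.42). Cdh2, the N-cadherin of excitatory synapses, stood at 2.37 ± 0.25 and Cdh22 at 2.41 ± 0.11. Pcdh10, a delta-2 protocadherin of synapse elimination, stood at 4.11 ± 0.14. Below the reference were Pcdh18 (−1.93 ± 0.06), Pcdh7 (−1.79 ± 0.20), Cdh11 (−1.24 ± 0.12), a cadherin of mesenchyme and neurons, and Pcdh19 (−0.63 ± 0.41). Cdh8 was well above background in the reference channel on 0 of 20 arrays, so its ratio has a denominator at the floor of the array.

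**Figure D1:**
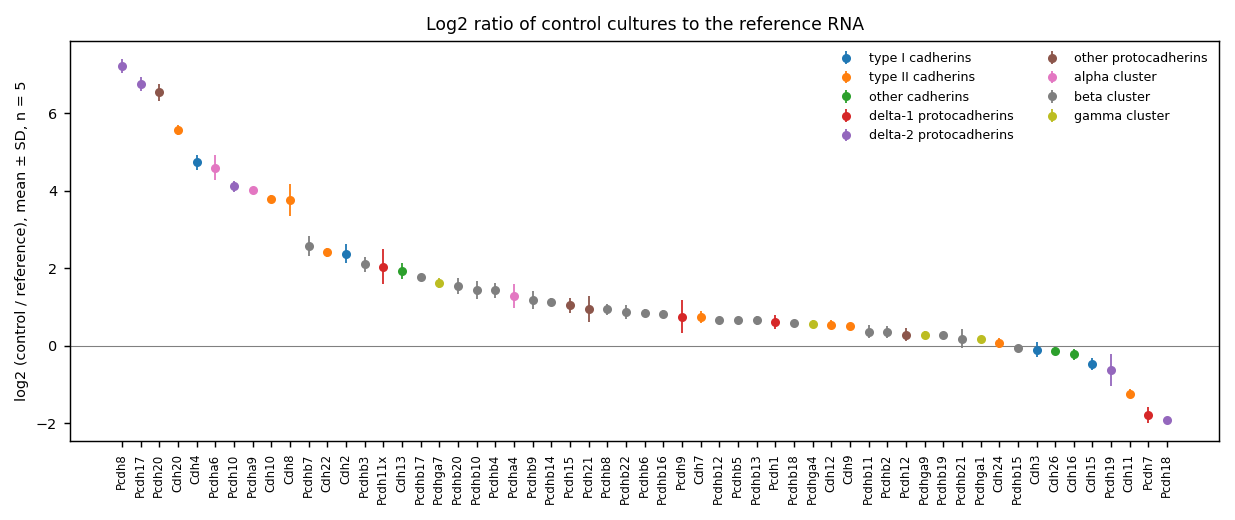
Control mean of the log2 ratio of sample to reference for each of the 57 genes tested, with the SD over 5 arrays. Genes run from the highest mean to the lowest, and colours mark their families. Pcdh8, Pcdh17 and Pcdh20 lie above 6, and Pcdh18, Pcdh7 and Cdh11 lie below −1.

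The 10 genes not tested included cadherins of other cell types. Cdh1, the E-cadherin of epithelia, and Cdh5, the VE-cadherin of endothelium, were well above background on 0 of 20 arrays, as were Cdh17, Cdh18, Pcdhb1, Pcdhga12 and Pcdhgb4. Cdh6 was so on 4, Cdh23, a cadherin of hair-cell tip links, on 2 and Cdh19 on 1. In the reference channel the probe of Cdh1 was well above background on 20 of 20 arrays, but those of Cdh5 on 4 and 0, so for Cdh5 a low reading sets no limit on endothelial RNA.

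The first AP5 array stood apart in a way that touches every AP5 result. The background correction fits 1 background per channel and array. In the reference channel that fit gave −148.54 intensity units on AP5 1 and −24.83 on control 5, against −6.49 to −1.56 on the other 18 arrays. Both arrays carried 3 spots more than 50 units below background, the lowest at −4794 on AP5 1 and −224.8 on control 5, and no other array had such a spot. When these 6 spots were left out of the fit, the fitted backgrounds became −3.65 and −2.99, and the log2 ratios of the other 18 arrays did not change. The spread of log2 ratios on AP5 1 (median absolute deviation over all genes) went from 0.83 to 1.06, against 0.98 to 1.07 on arrays other than AP5 1 and control 5. In the authors' deposited value table, the slope of AP5 1 on these ratios was 1.12 with all spots and 0.995 with the 6 left out. Of the 57 genes, 35 were lower on AP5 1 than on any other AP5 array with all spots, and 10 with the 6 left out. Values are therefore given both ways, as all-spot values, from the background correction as planned, and as refitted values, without the 6 spots, a choice made after the fitted backgrounds were seen.

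**Figure D2:**
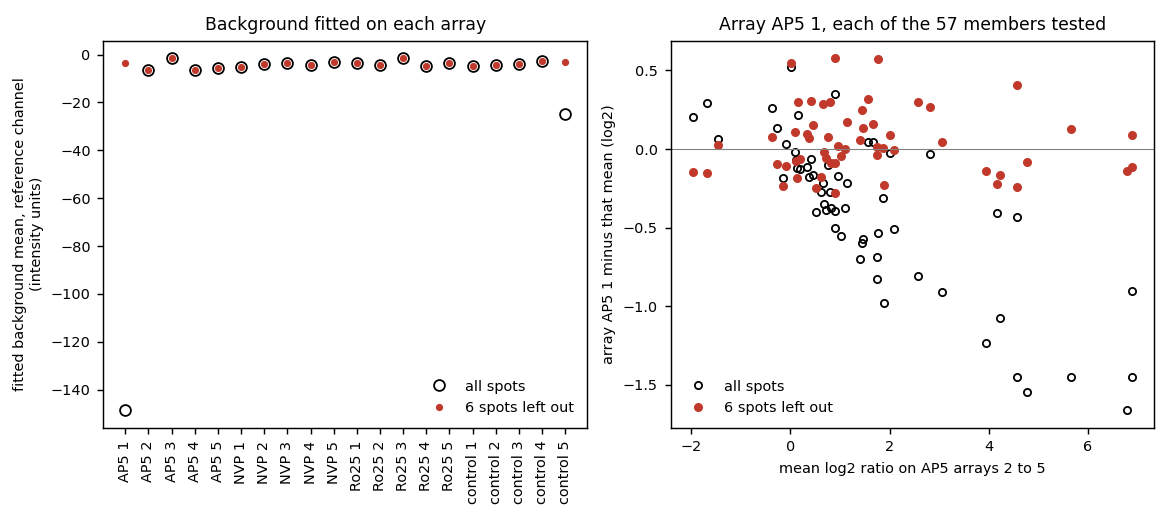
Left, the fitted background of the reference channel on each array in intensity units, with all spots and with the 6 spots left out; right, AP5 1 minus the mean of AP5 2 to 5 against that mean for the 57 genes (log2 ratios). With all spots AP5 1 is the more below the other AP5 arrays the higher a gene's ratio, as for Pcdh8 and Pcdh20; with the 6 spots left out the points lie nearer 0.

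AP5 arrays read lower than control arrays in 1 cadherin, Cdh22, and higher in Pcdh21 and Pcdh19; refitted values added Cdh8, Cdh2 and 6 genes of the beta cluster to the higher ones. AP5 and control arrays shared no slide, and with slide as a block 0 of 57 genes passed, so slide and treatment cannot be fully told apart in any of these differences. With all spots 3 of 57 genes passed (5.26%), where 6.08% of all 19513 genes tested passed (limma, Benjamini-Hochberg adjusted over all genes at 0.05). The share of the adhesion genes was thus near that of all genes. With the 6 spots left out 11 of 57 passed (19.3%), beside 8.6% of all genes. Of these, 10 were higher (17.5%, beside 4.25% of all genes) and 1 was lower (beside 4.35%). The median difference of the 57 genes was 0.05 with all spots and 0.10 refitted, and that of all genes was −0.012 and −0.0038. Refitted values were above control for 43 of the 57. Over all genes 490 were called higher and 697 lower (2.51 and 3.57%) with all spots, 830 and 849 refitted.

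Cdh22, a type II classical cadherin of brain, fell with AP5. Its log2 ratios on AP5 arrays 1 to 5 were 1.58, 2.15, 2.05, 2.13 and 2.01, and on control arrays 1 to 5 they were 2.42, 2.40, 2.49, 2.51 and 2.23. Refitting changed AP5 1 to 2.08 and control 5 to 2.32. All AP5 arrays lay below all control arrays either way. The difference was −0.42 (SE 0.09, limma adjusted p = 0.00759), a 1.34-fold fall, with all spots and −0.34 (SE 0.06, 95% interval −0.47 to −0.21, limma adjusted p = 0.00116), a 1.27-fold fall, refitted. It passed in 10 of 10 refits that each left out 1 AP5 or control array, with refitted differences of −0.37 to −0.32. With all spots the call was lost with a normexp offset of 0 (−0.45, limma adjusted p = 0.0601), with median centring (−0.35, 0.299) and with scale normalization (−0.31, 0.141), while refitted values kept it under scale normalization (−0.39, 0.011). On the NVP arrays the ratios were 2.26 to 2.42 and on the Ro25 arrays 2.10 to 2.41, both overlapping control. The gene was read by 1 probe at chr2:164852500-164852559 (mm7).

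Pcdh21, known as the photoreceptor cadherin and also present in the olfactory bulb, rose with AP5. Its AP5 ratios were 1.06, 1.91, 1.91, 1.57 and 1.61 on arrays 1 to 5, and its control ratios 1.22, 0.65, 0.95, 1.34 and 0.57. Refitting moved AP5 1 to 1.71 and control 5 to 0.64, after which every AP5 array lay above every control array, while with all spots AP5 1 lay among the controls. The difference was 0.67 (SE 0.17, limma adjusted p = 0.0234) with all spots and 0.78 (SE 0.15, 95% interval 0.48 to 1.09, limma adjusted p = 0.00139), a 1.72-fold rise, refitted. Refitted, it too passed in 10 of 10 refits without 1 array. With all spots it did not pass without AP5 2, AP5 3, control 2 or control 5 (differences of 0.57 to 0.60, limma adjusted p of 0.0641 to 0.0704), nor with a normexp offset of 0 (0.79, 0.104) or median centring (0.69, 0.071). Its only probe lies at chr14:34505752-34505811 (mm7).

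In the delta-2 family of protocadherins 1 gene was called, Pcdh19, the X-linked partner of Cdh2 known from an epilepsy that affects mostly females. Its AP5 ratios were 0.54, 0.0034, 0.25, 6e-04 and −0.19, its control ratios −0.37, −1.07, −0.12, −0.58 and −0.996. The groups overlapped only through AP5 5, which lay below control 3. The difference was 0.75 both ways (SE 0.21, limma adjusted p = 0.0343 with all spots and 0.0256 refitted). It was lost in 4 of 10 refits without 1 array (AP5 1, AP5 3, control 2 or control 5), with refitted adjusted p up to 0.0826, and with all spots also without AP5 4 or control 4. It was lost as well with median centring (0.93, limma adjusted p = 0.347), with scale normalization (0.81, 0.0505) and on the first scan day alone (0.56, 0.144). A second probe of the gene gave 0.43 (SE 0.15, limma adjusted p over probes = 0.0836).

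Pcdh8, whose protein binds Cdh2 and draws it from the membrane, had the highest ratios of the set and did not pass. With all spots its AP5 ratios were 5.45, 6.79, 7.08, 6.84 and 6.86 and its control ratios 7.29, 7.13, 7.43, 7.27 and 6.96. AP5 1 read 6.98 and control 5 read 7.27 after refitting, and then all AP5 arrays were below all control arrays. The difference was −0.61 (SE 0.22, limma adjusted p = 0.13) with all spots and −0.37 (SE 0.12, limma adjusted p = 0.067) refitted, and it passed in 0 of 10 refits without 1 array. Its direction turned with the scanner's processed signals (0.36, limma adjusted p = 0.291), and it passed on the first scan day alone after refitting (−0.45, 0.0418). The other delta-2 genes differed little, with refitted differences of 0.06 for Pcdh10, 0.09 for Pcdh17 and −0.07 for Pcdh18 (limma adjusted p of 0.641 to 0.757).

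Cdh8, a type II cadherin of hippocampal synapses, was not called with all spots on all 20 arrays and was called after refitting. On AP5 arrays it read 3.24, 4.42, 4.86, 5.04 and 4.82, and on control arrays 4.05, 3.48, 4.17, 3.87 and 3.17. AP5 1 became 4.70 and control 5 became 3.51, so that the groups no longer overlapped. The difference was 0.73 (SE 0.28, limma adjusted p = 0.159) with all spots and 0.95 (SE 0.19, 95% interval 0.56 to 1.34, limma adjusted p = 0.00228), a 1.93-fold rise, refitted. All 10 refits without 1 array called it, and with all spots it was called without AP5 1 (difference 1.04, limma adjusted p = 0.0064), on the first scan day alone (1.01, 0.00898) and with scale normalization (0.93, 0.0166). It was not called with the scanner's processed signals (0.69, limma adjusted p = 0.241), with a normexp offset of 0 or with median centring. In the reference channel this probe was well above background on 0 of 20 arrays, so the ratio has a denominator at the floor. A fit of the authors' deposited values gave 0.95 (limma adjusted p = 0.00183). Those values come from the same arrays and nearly equal the refitted ratios (correlation of 0.9998 on AP5 1), so they are no separate support. Its second probe gave 0.50 (SE 0.18, limma adjusted p over probes = 0.0977), with the same sign and a smaller size.

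Cdh2, which organises excitatory synapses, was higher with AP5 after refitting. Its AP5 ratios were 2.79, 2.58, 3.35, 2.61 and 2.73 and its control ratios 2.58, 2.02, 2.63, 2.37 and 2.26. AP5 3 was the highest, and AP5 2 and 4 lay below control 3. The difference was 0.44 (SE 0.15, limma adjusted p = 0.0908) with all spots and 0.49 (SE 0.15, limma adjusted p = 0.046), a 1.40-fold rise, refitted, where AP5 1 read 3.08. It held in 4 of 10 refits and was lost without AP5 1, AP5 3, AP5 5, control 2, control 4 or control 5. On the first scan day alone its difference was 0.27 with all spots (limma adjusted p = 0.32) and 0.26 refitted (0.342). Of the other classical cadherins, Cdh4 had refitted values of 4.52 with AP5 and 4.78 in control (difference −0.25, SE 0.10, limma adjusted p = 0.134). The chosen probe of Cdh11 gave −0.22 (SE 0.08, limma adjusted p = 0.0989). Its 2 other probes gave 0.27 (limma adjusted p over probes = 0.0312) and 0.22 (0.136), so the probes of Cdh11 disagreed in sign. Cdh10 and Cdh20 had refitted differences of 0.10 and 0.06 (limma adjusted p of 0.591 and 0.91), and Cdh9 0.14 (0.557).

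**Figure D3:**
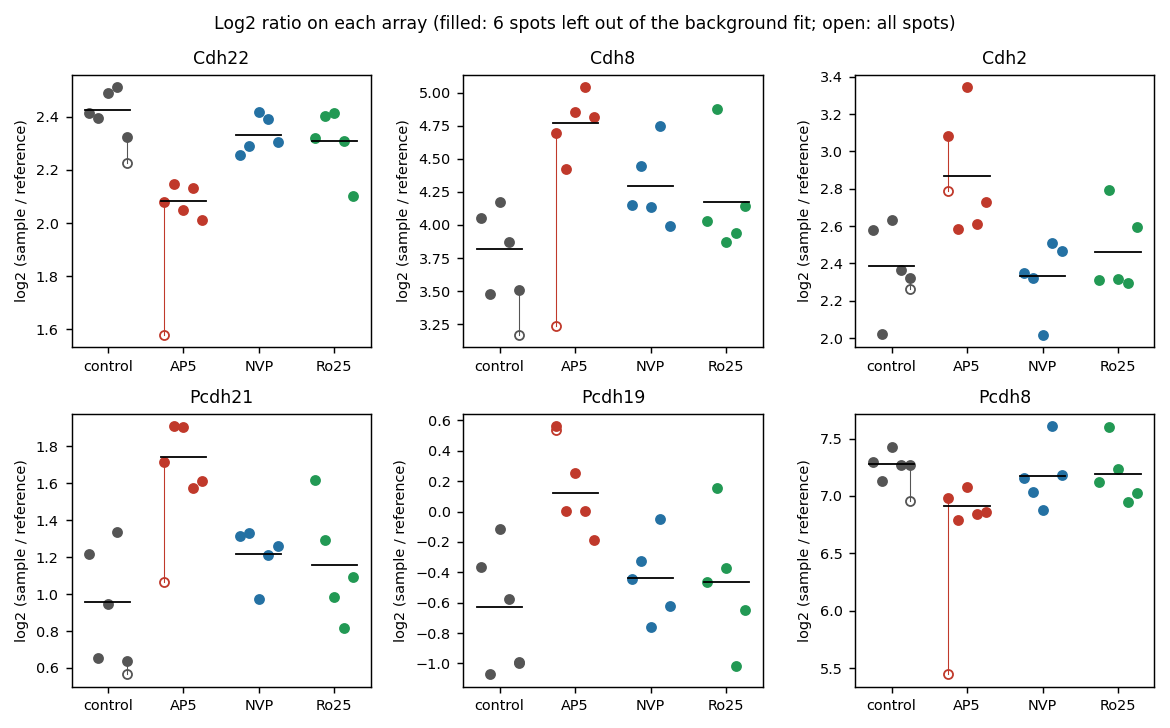
Log2 ratio of sample to reference on each of the 20 arrays for Cdh22, Cdh8, Cdh2, Pcdh21, Pcdh19 and Pcdh8. Filled points are refitted values, open points all-spot values where they differ (AP5 1 and control 5), and lines are refitted means; AP5 points of Cdh22 and Pcdh8 lie below control and those of Cdh8 and Pcdh21 above it.

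The beta cluster leaned upward with AP5 after refitting. Of its 21 genes tested, 20 had refitted values above control, with a median difference of 0.12, and 6 were called higher and 0 lower, where 4.25% of all genes were called higher. Against the same controls 19 of the 21 were higher with Ro25 (median 0.08) and 16 with NVP (median 0.03), with 0 called. AP5 set against NVP directly was higher in 21 of 21 (median 0.13) and against Ro25 in 18 (median 0.06), again with 0 called. With all spots 17 of 21 were above control, with a median of 0.08, and 0 were called by limma, while 3 of the 21 (12 of all 57 genes, beside 17.8% of all genes tested) had an unadjusted p under 0.05. Pcdhb16 rose by 0.27 (SE 0.06, limma adjusted p = 0.00867), with refitted means of 1.11 ± 0.09 for AP5 and 0.83 ± 0.07 for control (SD, n = 5 each), no overlap of arrays, and a call in 10 of 10 refits. Pcdhb10 rose by 0.30 (SE 0.08, limma adjusted p = 0.0208). Pcdhb18 (0.21, SE 0.06, limma adjusted p = 0.0303), Pcdhb7 (0.47, SE 0.14, 0.0445), Pcdhb3 (0.50, SE 0.15, 0.0482) and Pcdhb4 (0.38, SE 0.12, 0.0492) passed as well. These last 4 were named after their values were seen. They and Pcdhb10 lost the call in 4 to 8 of 10 refits, on leaving out AP5 1, AP5 2, AP5 3, AP5 4 or AP5 5, or any of the 5 control arrays, depending on the gene. Pcdhb15 differed by 0.17 (SE 0.06, limma adjusted p = 0.0831), and its second probe gave −0.04 (SE 0.06). Arrays did not overlap in 5 genes higher (Cdh8, Pcdh21, Pcdhb15, Pcdhb16 and Pcdhb18; 4.02% of all genes) and 2 lower (Cdh22 and Pcdh8; 4.28%) after refitting. With all spots the counts were 1 higher (Pcdhb15; 2.5% of all genes) and 1 lower (Cdh22; 3.88%).

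The alpha and gamma clusters held no called gene either way. In these clusters a first exon specific to each gene is joined to exons that all genes of the cluster share. The probes chosen for Pcdha6 (chr18:37563564-37563623) and Pcdha9 (chr18:37561305-37561364) each list 4 curated transcripts, and lie far from a second probe of Pcdha6 (chr18:37346276-37346335) that lists 1 (all mm7). The chosen probes gave refitted AP5 differences of 0.03 (SE 0.19) and 0.11 (SE 0.09). The probes that list 1 transcript gave 0.32 (SE 0.15, limma adjusted p over probes = 0.223) for Pcdha6 and 0.41 (SE 0.21, 0.285) for Pcdha9. The chosen probe of Pcdhga7 also lists 4 transcripts and gave 0.08 (SE 0.08). Beta genes resemble one another closely, and whether a probe also takes up RNA of a related gene was not tested.

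**Figure D4:**
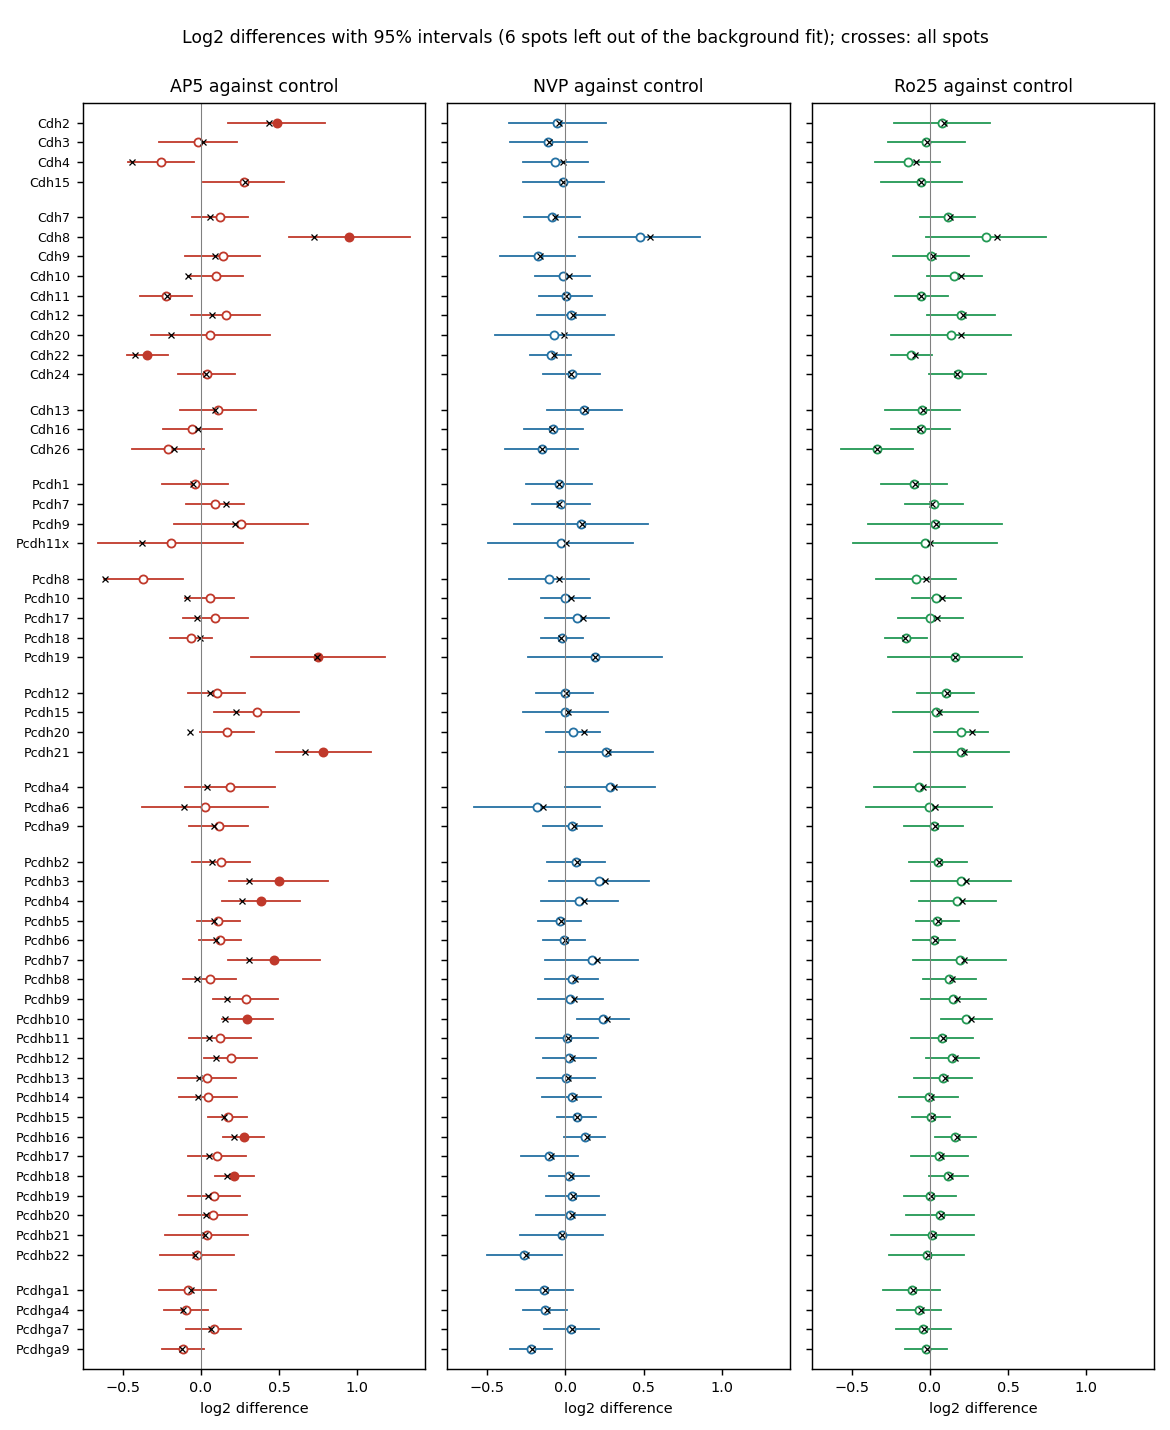
Refitted log2 differences from control with 95% intervals for 57 genes and 3 treatments, in family order; filled points passed an adjusted p of 0.05 and crosses are all-spot values. Filled points are seen with AP5 alone: 10 to the right of 0 and Cdh22 to the left.

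The delta-1 family (Pcdh1, Pcdh7, Pcdh9 and Pcdh11x), which binds the phosphatase PP1 through its tail, held 0 calls in 4, with refitted differences of −0.19 for Pcdh11x to 0.26 for Pcdh9 (SE 0.22 and 0.21). Pcdh15, a tip-link protocadherin, had 0.36 (SE 0.13, limma adjusted p = 0.104), and Pcdh20 had 0.17 (SE 0.08, 0.247). Cdh13, held in the membrane by a lipid anchor, had 0.11 (SE 0.12, limma adjusted p = 0.669).

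The slides on which the arrays lay bear on every difference from control. The 20 arrays lay on 7 slides, and none held both AP5 and control arrays. Slide 5 held controls 1, 2, 4 and 5, slide 4 held control 3 with Ro25 1, 4 and 5, slides 1 and 7 held AP5 2, 3 and 4 alone, slide 2 AP5 5 with 3 NVP arrays, and slide 6 AP5 1 with Ro25 2. With slide as a block the AP5 value runs through NVP and Ro25 arrays and rests on control 3, AP5 1 and AP5 5. It then called 0 of 57 genes (0.21% of all genes with all spots, 0.292% refitted) and turned the sign of 24 of 57. Refitted Cdh22 kept its direction at −0.64 (SE 0.15, limma adjusted p = 0.0984), and so did Pcdh21 at 0.78 (SE 0.42, 0.339) and Pcdh8 at −0.92 (SE 0.27, 0.157). Cdh2 fell to 0.16 (SE 0.28, limma adjusted p = 0.779), Cdh8 to −0.0012 (SE 0.39, 0.999) and Pcdh19 turned to −0.34 (SE 0.40, 0.664). Of the beta genes called, Pcdhb16 gave 0.07 (SE 0.16), Pcdhb10 0.43 (SE 0.22), Pcdhb18 0.32 (SE 0.15), Pcdhb4 0.48 (SE 0.32), Pcdhb3 −0.19 (SE 0.23) and Pcdhb7 −0.09 (SE 0.27).

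Scan day differed between the groups as well. All control and NVP arrays were scanned on the first day, AP5 1 and Ro25 2 on the second and AP5 3 on the third. On the first day alone 4 of 57 genes passed against control with all spots (Cdh8, Pcdh21 and Pcdhb18 higher, Cdh22 lower; 4.71% of all genes). After refitting Pcdh8 joined them as lower, which made 5 (4.84% of all genes). Pcdh19, Cdh2 and Pcdhb16 were not among them.

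Within slides, the comparison that holds a control is Ro25 1, 4 and 5 minus control 3 on slide 4. It was −0.25 in Cdh22, 0.23 in Pcdh21, −0.40 in Pcdh8, −0.59 in Pcdh19, −0.13 in Cdh8 and −0.23 in Cdh2 (refitted). Control 3 differed from the other 4 controls by 0.45 for Cdh8, 0.64 for Pcdh19, 0.31 for Cdh2 and 0.19 for Pcdh8. For Cdh22 it differed by 0.08 and for Pcdh21 by −0.01 (refitted). These are shifts of 1 array, and their cause was not tested. AP5 5 minus the NVP arrays of its own slide was −0.36 in Cdh22, 0.44 in Pcdh21 and 0.45 in Cdh2. AP5 1 minus Ro25 2 was −0.32 in Cdh22, 0.42 in Pcdh21 and 0.29 in Cdh2. In the same order the values were 0.19 and 0.40 in Pcdh19, −0.32 and −0.63 in Pcdh8, and 0.37 and −0.18 in Cdh8 (all refitted). Each rests on 1 AP5 array and holds no control. These 6 genes were singled out by AP5 differences that include these arrays. Agreement in sign is thus no separate support for a difference from control. With all spots AP5 1 minus Ro25 2 was −0.83 in Cdh22, −0.23 in Pcdh21 and −0.0043 in Cdh2, so the pairings of Pcdh21 and Cdh2 then differed in sign.

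**Figure D5:**
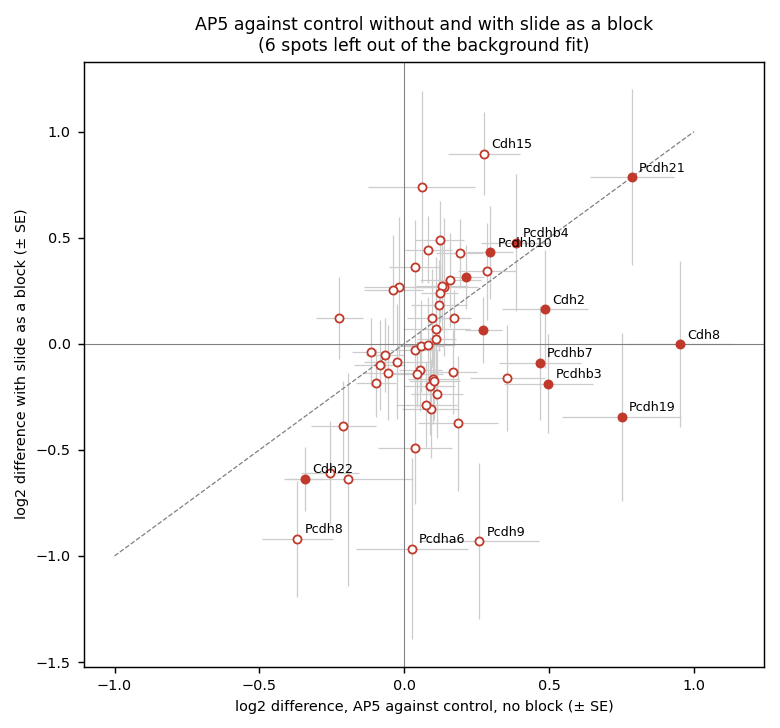
Refitted AP5 minus control log2 difference of each gene without a block against that with slide as a block. Cdh22 and Pcdh21 lie on the same side of 0 on both axes, and Cdh8 and Pcdh19 drop to or below 0 with the block.

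NVP and Ro25 gave no called member. With NVP 0 of 57 genes passed (0% of all genes), and 2 of 57 had an unadjusted p under 0.05 by limma, where 5.88% of all genes did. The lowest belonged to Pcdhga9, a gamma protocadherin, at −0.21 (SE 0.07, limma adjusted p = 0.625), followed by Pcdhb22 at −0.25 (SE 0.12, 0.833), Pcdhb10 at 0.27 (SE 0.14, 0.878), Cdh8 at 0.54 (SE 0.28, 0.887) and Pcdha4 at 0.31 (SE 0.16, 0.895). Pcdhga9 was well above background on 7 of 20 arrays: 3 control, 3 Ro25 and 1 NVP. It thus met the limit for testing mainly through other groups, and its NVP values lie near background. With Ro25 0 of 57 genes passed, beside 0.0154% of all genes, and 3 had an unadjusted p under 0.05 (4.33% of all genes). Cdh26, a little-known cadherin, had the lowest at −0.34 (SE 0.12, limma adjusted p = 0.826), ahead of Pcdh18 (−0.16, SE 0.07), Pcdhb16 (0.17, SE 0.08), Pcdhb12 (0.16, SE 0.08) and Cdh12 (0.21, SE 0.10), each at an adjusted p of 1. Cdh26 was well above background on 9 of 20 arrays, 5 of them control and 1 Ro25. It thus met the limit for testing through the control arrays, and its Ro25 values lie near background. Refitted values called 0 of 57 genes too, beside 0% of all genes for NVP and 0.0205% for Ro25. Cdh22 differed from control by −0.08 (95% interval −0.27 to 0.12) with NVP and −0.10 (−0.29 to 0.10) with Ro25, and Pcdh21 by 0.27 (−0.09 to 0.64) and 0.22 (−0.15 to 0.58). These comparisons share the control arrays with AP5, so each gene's values are set side by side and not correlated.

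The antagonists were also set against each other directly. They were given at 1 concentration each, and these concentrations differ, so the differences belong to these treatments. With all spots AP5 differed from NVP in 1 gene, Cdh22 (−0.35, SE 0.09, limma adjusted p = 0.0297; 5.7% of all genes passed). Refitted values called 3 (5.26%, beside 7.49% of all genes): Cdh22 (−0.25, SE 0.06, limma adjusted p = 0.0165), Pcdh21 (0.53, SE 0.15, 0.0297) and Cdh2 (0.54, SE 0.15, 0.0298). In all 3 the AP5 and NVP arrays did not overlap, as was so for 4.35% of all genes in the higher and 3.62% in the lower direction. Against Ro25, AP5 called 0 genes by limma with all spots (3.07% of all genes). Of the 57, 8 then had an unadjusted p under 0.05 by limma, beside 13.1% of all genes. Refitted values called 2 (3.51%, beside 4.07% of all genes): Pcdh21 at 0.58 (SE 0.15, limma adjusted p = 0.0237) and Cdh22 at −0.22 (SE 0.06, 0.0451). NVP against Ro25 called 0 of the 57 genes by limma (0% of all genes), and 2 had an unadjusted p under 0.05 (5.87% of all genes). For Cdh22 their difference was 0.02 (95% interval −0.17 to 0.22).

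Several of these calls between antagonists depended on single arrays. With all spots the call of Cdh22 against NVP was lost without AP5 1 (−0.25, limma adjusted p = 0.0529), NVP 2, NVP 3 or NVP 4 (−0.36 to −0.33, 0.0556 to 0.0798). Refitted, Cdh22 passed against NVP in 9 of 10 refits without 1 array (−0.27 to −0.23), the exception being the refit without NVP 3. On the first scan day alone Cdh22 did not pass against NVP, with all spots or refitted. Nor did it pass with the scanner's processed signals or, refitted, with scale normalization. Pcdh21 passed against NVP in 5 of 10 (0.46 to 0.57) and was lost without AP5 1, 2 or 3 or NVP 3 or 4. Cdh2 also passed in 5 of 10 (0.42 to 0.61), and was lost without AP5 1 or 3 or NVP 1, 2 or 3. Against Ro25, refitted Pcdh21 passed in 6 of 10 (0.50 to 0.70) and was lost without AP5 2 or 3 or Ro25 3 or 4. Refitted Cdh22 passed there in 1 of 10, without Ro25 5 (−0.28, limma adjusted p = 0.00822). Without Ro25 2, Cdh8 (0.77, limma adjusted p = 0.00821) and Pcdh19 (0.75, 0.0351) were called higher with AP5 than with Ro25.

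The other genes of the pathway were read from fixed lists. Of 12 catenin and tail genes, the partners that tie cadherins to actin, 0 passed with AP5 either way. The closest were Ctnnb1 (beta-catenin), at 0.16 refitted (SE 0.06, limma adjusted p = 0.0897), and Jup (plakoglobin), at 0.21 (SE 0.08, 0.113). Of 15 genes tested on the atypical cadherin list 2 passed as higher either way (2.51% of all genes with all spots, 4.25% refitted). One is Cdhr1, already described as Pcdh21. The other is Celsr1, a cadherin of planar polarity, with 1.25 (SE 0.33, limma adjusted p = 0.0194), which the slide block turned to −0.30. Of 11 genes of shedding and cleavage, which cut cadherins at the membrane, Aph1b of gamma-secretase passed refitted only (0.26, SE 0.08, limma adjusted p = 0.0479), and its value with the slide block was −0.02. Of 19 regulators of the clusters and genes downstream of protocadherins 0 passed. Ctcf, which loops the cluster promoters to their enhancers, had 0.02 (SE 0.07, limma adjusted p = 0.946) and Smchd1, a repressor of the clusters, 0.13 (SE 0.12, 0.623). With NVP and Ro25 0 genes of these 4 lists passed.

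Markers of cell types were measured beside these genes, since in a culture fewer cells of a type and less RNA per cell cannot be told apart. All 8 neuron markers were tested, and their mean log2 ratio was 5.30 to 5.43 on AP5 and 5.30 to 5.50 on control arrays, refitted. On AP5 1 with all spots that mean was 4.62. The 8 astrocyte markers had means of 3.496 to 4.39 on AP5 and 3.33 to 4.19 on control arrays, and 0 of them were called. Their median refitted difference was 0.17, beside −0.0038 for all genes, and only Slc1a2 was lower (−0.03). Of the 8 neuron markers Map2 (Mtap2 on the array, 0.35, limma adjusted p = 0.046) and Stmn2 (0.22, 0.0168) were called higher with AP5 after refitting. With all spots neither passed (0.16, limma adjusted p = 0.727, and 0.15, 0.313). Uncalled after refitting, Tubb3, Rbfox3, Snap25, Nefl and Nefm were lower (−0.34 to −0.04) and Syt1 higher (0.21). The median of the list was −0.05. Over all genes 4.25% were called higher and 4.35% lower, refitted. Of 6 microglial markers tested Csf1r was higher (0.44, limma adjusted p = 0.00302) and Cd68 lower (−0.27, 0.0379), with a list median of −0.07. With all spots Csf1r passed (0.46, limma adjusted p = 0.00282) and Cd68 did not (−0.25, 0.101). The microglial mean was −1.95 on control 1, above the other 19 arrays (−2.94 to −2.61). Of 8 fibroblast and meningeal markers Col1a2 was lower (−0.24, limma adjusted p = 0.0422), with list means of −3.93 to −3.55 on AP5 and −3.80 to −3.53 on control arrays. Col1a2 was called lower with all spots as well (−0.25). Dcn was higher and not called (0.63, limma adjusted p = 0.104, refitted). Of 7 oligodendrocyte and 6 choroid plexus markers 0 were called. Of 6 endothelial markers Kdr was higher (0.94, limma adjusted p = 0.00412), while Pecam1 and Tie1 did not reach the level needed for the test. With all spots Kdr gave 0.73 (limma adjusted p = 0.0248), which the slide block turned to −0.34 (0.36 refitted). Refitted and uncalled, Tek, Flt1 and Emcn were lower (−0.22 to −0.04) and Cldn5 and Esam higher (0.05 and 0.03). The part of any of these in the adhesion genes was not tested.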

How the data were processed

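RNA of neuron cultures was measured on 20 Agilent 2-colour arrays. The authors deposited scanner files whose spot intensity is linear, together with log10 ratios and other columns such as flags for background and outliers, per the file headers. The software was Feature Extraction, version 10.7.3.1 in the headers and 11.0 in the submitters' processing notes. They also deposited a table of log2 ratios of 20674 probes, made by steps not given in the sources used here, which served as an alternative.

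From the intensities, background was corrected by normexp (offset 50) and dyes were normalized by loess with limma 3.58.1 (R 4.3.3, data.table version 1.17.8), with control and outlier spots at weight 0. Probes whose red signal stood well above background on 5 or more arrays were kept (28498), the brightest probe stood for each gene name (19513 genes), and 1 model over 20 arrays was tested two-sided (residual df 16, prior df 3.67) with Benjamini-Hochberg adjustment. Of the probes of an array 58.6 to 69.3% passed in red, where 0 spots were saturated. Saturation in the reference channel was not counted. The number of arrays limits the precision. The genes, lists and rules were chosen with earlier results of these data known. Genes were named if called, if among the 5 lowest p against control, if arrays did not overlap, or if on a fixed list. The script was tested on simulated data. Promoters come from RefSeq (23 of 67 genes matched). Replicate numbers were not taken to pair arrays: same-numbered AP5 and control arrays deviated together with correlations of −0.369 to 0.568, though arrays numbered 5 did so in all 6 comparisons (0.568 to 0.763).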

Additional observations from a re-analysis of the deposited data

Results flagged for a closer look

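In 120 groups of 5 arrays (30 named genes, all-spot values), 14 held an array far from the other 4 by Dixon's ratio at 95%, where chance gives about 1 in 20. Of these 14, 8 were AP5 1. That array read 2.71 for Cdh10 (other AP5 arrays 3.87 to 4.00), 1.58 for Cdh22 (2.01 to 2.15), 3.13 for Cdh4 (4.42 to 4.78) and 3.16 for Pcdh10 (4.10 to 4.48). It read 5.14 for Pcdh20 (6.62 to 6.89), 5.45 for Pcdh8 (6.79 to 7.08), 0.93 for Pcdhb10 (1.66 to 1.84) and 0.53 for Pcdhb12 (0.78 to 0.87). With the 6 spots left out of the background fit 5 arrays remained past the limit, 1 of them on AP5 1.

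The other values were Cdh2 on AP5 3 at 3.35 (others 2.58 to 2.79), Cdh20 on NVP 5 at 6.06 (5.36 to 5.55) and Cdh8 on Ro25 2 at 4.88 (3.87 to 4.15). Pcdh11x on control 5 stood at 1.25 (2.10 to 2.38), Pcdh20 on NVP 4 at 6.86 (6.58 to 6.62) and Pcdhga9 on NVP 4 at 0.23 (−0.01 to 0.05).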

How the results depend on the processing

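For AP5 against control 3 of 57 genes were called as planned, beside 6.08% of all genes. The count was 0 with slide as a block (0.21% of all genes) and 1 with a normexp offset of 0 (4.74%). It was 12 with the scanner's processed signals (11 higher, beside 7.88% of all genes) and 0 with median centring (0.851%). Scale normalization gave 2 (both higher, beside 3.59%) and the deposited values 8 of 51 (7 higher, beside 9.02%). With the 6 spots left out it was 11, and with these left out as well it was 0 with slide as a block, 5 on the first scan day and 6 with scale normalization (5 higher). For AP5 against NVP (1) these settings gave 0, 0, 2, 0, 0, 3, 3 and 0, and each probe on its own gave 2. Over all genes 5.7% passed as planned, and 0.548, 4.44, 6.48, 0.62, 3.11, 7.48, 7.49 and 0.789% in these settings, with 4.85% of probes. For AP5 against Ro25 (0, beside 3.07% of all genes) the slide block gave 3, namely Cdh22 (−0.69), Pcdh8 (−1.42) and Cdh15 (0.61). Of all genes 1.06% passed with that block. Refitted, the block called 0 of the 57 genes, beside 0.553% of all genes. Processed signals gave 1 (3.44% of all genes) and the authors' deposited values 1 (3.88%). The 6 spots left out gave 2 (4.07%), or 1 with scale normalization as well (3.26%). Leaving out 1 array at a time, with all spots or refitted, gave 1 to 10, 0 to 4 and 0 to 3 in these comparisons, and 0 throughout in the other 3. With all spots the AP5 count against control was 6 without AP5 1 (6.25% of all genes) and 1 without AP5 3, control 2 or control 5.

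The replicate block gave 3 calls for AP5 against control (6.34% of all genes), the same 3 genes. It gave 1 for AP5 against Ro25 (Cdh22, −0.33, limma adjusted p = 0.0406), beside 3.38% of all genes. Of the 20 arrays, 4 correlated best with an array of their own number. Counting only genes called in 1 of the settings compared, values reversed for Cdh11 in the value table (0.27, from another probe). They also reversed for Pcdh19 with the slide block (−0.36 with all spots, −0.34 refitted). With the slide as a random block all 3 calls against control remained (6.86% of all genes). The fitted correlation within slides was −0.0401, near 0. That setting is thus close to the fit without a block and cannot tell slide from treatment. Called or not, 24 of the 57 differences between AP5 and control turned with the slide block, 12 with processed signals, 11 on the first scan day and 7 with scale normalization. NVP against control, Ro25 against control and NVP against Ro25 gave 0 calls in every setting run. The cause of differences between settings was not tested, except that the 6 spots change AP5 1 and control 5 alone.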
